A study of Mus musculus with 12 samples.

Results

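BV2 cells, an immortalized line of mouse microglia, were compared with and without lipopolysaccharide (LPS), a bacterial outer membrane glycolipid, and no other agent. The treated group (100 ng/mL LPS, 2 libraries) and the untreated group (2 libraries) both came from cells grown in DMEM with serum and moved to serum-free medium for at least 4 h before treatment. The interval from LPS to harvest is not given in the labels, nor whether the 2 libraries of a group came from separate cultures. The spread between libraries of a group may therefore be technical. Each p-value rests on a spread estimated over all 12 libraries of the series, not on that of the compared libraries alone. The comparison used 4 of the 12 libraries of the series. The other 8, from LPS-treated cells that had also received 6-gingerol or 6-shogaol, entered the fit so that all groups shared 1 estimate of spread. All genes that passed a filter on low counts were taken: 12705 of 20020 genes with at least 1 count.

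LPS is bound by Cd14 and by the Tlr4 receptor with its partner Ly96. The receptor signals from the cell surface through Myd88 to NF-kB and the MAP kinases, and from endosomes through Ticam1 to interferon regulatory factors and interferon-stimulated genes. In microglia and macrophages this response is best known for its cytokines, and it also involves the membrane transport, lipid and nucleotide metabolism, surface receptors and transcription factors described here.

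The 4 libraries held 16906954 and 21179867 expected counts with LPS, and 19784878 and 20271750 untreated. Levels are counts scaled to library size (CPM, with TMM factors), given for LPS replicates 1 and 2 and then for untreated replicates 1 and 2. A change is the log2 fold change of LPS over untreated with its standard error (SE), and a gene was called at an edgeR adjusted p under 0.05 over all genes tested. Among 20 microglia and macrophage markers, 16 were tested. Of these, 3 were called higher and 2 lower, with 1 and 2 called in every fit that left out 1 library. The higher one that kept its call was Adgre1, with 727 and 672 CPM with LPS and 466 and 420 CPM untreated (0.66). Csf1r (0.49) and Ptprc (0.39) were also higher, and their calls were lost in some of those fits. The lower ones were Fcgr3, described below, and Trem2, a lipid-sensing receptor of microglia, with 43.8 and 36.3 CPM with LPS and 64.2 and 59.8 CPM untreated (-0.63, SE 0.11, adjusted p = 0.00148). The summed level of all 20 was 3110 and 3086 CPM with LPS, against 2981 and 2844 CPM untreated. The macrophage marker Cd68 was well detected, with 732 and 797 CPM with LPS, against 795 and 735 CPM untreated. The microglial marker P2ry12 lay at 0.848 and 0.286 CPM with LPS, against 0.719 and 0.326 CPM untreated, and Sall1, Gpr34 and Siglech were at 0 in all 4. Neuronal markers were near 0, with 7 of 9 at 0 in all 4 libraries and none tested. Of 11 markers of fibroblasts and endothelium, 4 were tested and 2 were called higher, Col1a1 and Pecam1, with 0 called in every fit that left out 1 library. Col1a1 had 1.33 and 1.62 CPM with LPS and 0.257 and 0.326 CPM untreated (2.32, SE 0.47, adjusted p = 0.00391), and Pecam1 had 0.605 and 0.714 CPM with LPS and 0.0513 and 0.0930 CPM untreated (3.07, SE 0.67, adjusted p = 0.00634). Both calls were lost without LPS replicate 2 (adjusted p = 0.0523 and 0.0678), and that of Pecam1 without untreated replicate 1 (adjusted p = 0.0509). The sum of all 11 markers, 129 and 132 CPM with LPS against 143 and 164 CPM untreated, was nearly all Kdr, which had 126 and 129 CPM with LPS and 142 and 163 CPM untreated and did not pass the test (adjusted p = 0.0942). The part of such cells in the results was not tested. In bulk RNA, fewer cells of a type and less RNA per cell cannot be told apart.

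LPS changed 1501 genes (11.8% of those tested). Of these, 973 were higher (7.66%) and 528 lower (4.16%), and 370 rose (2.91%) and 79 fell (0.622%) by at least 2-fold. The median change of the genes called higher was 0.77 on the log2 scale, and that of the genes called lower had a size of 0.54. In every gene called, both LPS libraries lay on 1 side of both untreated libraries, a separation that 23% of all genes tested showed in the higher direction and 26.6% in the lower. Lists of cytokines, chemokines and interferon-inducible effectors held 90 of the 12705 genes tested, of which 56 rose (62.2%, against 7.66% of all genes). Outside these lists, where nearly all tested genes lie, were 917 of the 973 genes called higher and 321 of the 370 that rose at least 2-fold.

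The 2 untreated libraries differed from each other more than the replicates of any other group. The chi-square of their counts over genes was 39.2 per degree of freedom, against 9.76 for the LPS libraries and 6.69 to 17.6 for the other groups, and a spread shared by all groups can understate that of the untreated group. With only the compared groups fitted, 1023 genes were called, 770 higher and 253 lower. Of the fits that left out 1 library, those without an LPS library gave the fewest genes called lower. Without LPS replicate 1 the calls numbered 855, 177 of them lower, and without LPS replicate 2 they numbered 768, 171 of them lower. In the 4 fits that each left out 1 library, 533 of the 973 genes remained called higher every time, and 100 of the 528 remained called lower. With library totals in place of TMM the split was 785 higher and 688 lower, and the median change of all genes was -0.08 in place of -0.03. Genes named as higher or lower kept their call in all 4 of those fits unless an adjusted p without a library is given or the loss is stated. Most were named by a fixed rule on size of change. The 23 called genes Apoc2, Apoc4, Apoe, Cd274, Col1a1, Cxcr4, Fas, Fth1, Hp, Ikbke, Lcn2, Lrrc8b, Lrrc8c, Lrrc8d, Ly75, Ncf4, Nlrp3, Parp14, Pde4b, Pde8b, Pecam1, Ptafr and Tlr2 lie outside it and were chosen after their values were seen. Also outside it are the called genes Gbp9, Gm26811, Oas1a, Pde10a and Saa2, named only as members of a run, list or family or as an overlapping gene.

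**Figure D1:**
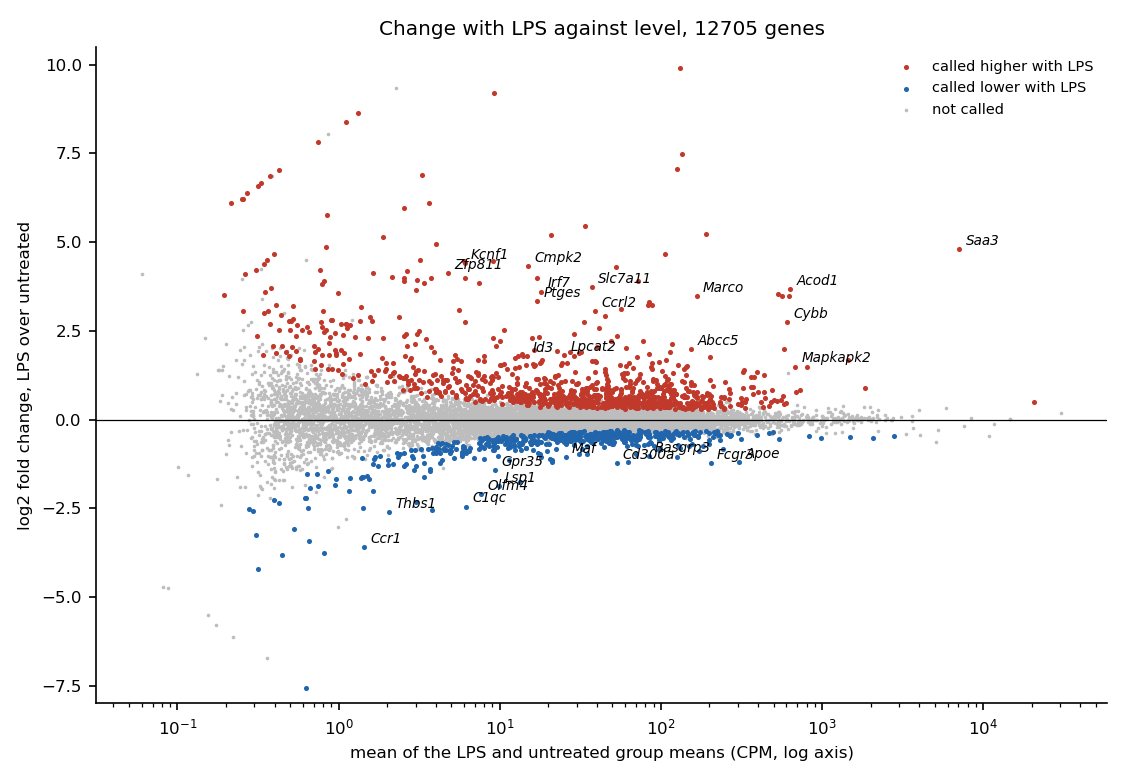
Log2 fold change of LPS over untreated (vertical axis) against the mean of the group means in CPM (horizontal log axis) for all 12705 genes, with the 973 called higher in red, the 528 called lower in blue and the others in grey. Saa3 stood apart at high level, and Ccr1 was among the named genes with the most negative change.

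Within the Tlr4 pathway itself, feedback inhibitors and downstream factors changed, and the receptor complex did not pass the test. Of 69 measured pathway genes, 18 rose and 6 fell, with 12 and 1 of these called in every fit that left out 1 library. The shares called were 26.1% higher and 8.70% lower, against 7.66% and 4.16% of all genes. Tlr4 stood at 61.5 and 57.2 CPM with LPS against 56.0 and 52.0 CPM untreated (log2 fold change 0.13, SE 0.10, adjusted p = 0.468). Cd14 had 143 and 144 CPM with LPS and 141 and 115 CPM untreated (adjusted p = 0.449), and Myd88 had 50.7 and 48.2 CPM with LPS and 54.4 and 48.1 CPM untreated (adjusted p = 0.821). These 3 did not pass the test in either direction. Nfkbia, the inhibitor that holds NF-kB in the cytoplasm, rose to 148 and 144 CPM with LPS, against 48.3 and 47.2 CPM untreated (log2 fold change 1.61, SE 0.10, adjusted p = 1.83e-08). Peli1, a ubiquitin ligase of the IRAK complex, had 93.8 and 97.5 CPM with LPS and 30.0 and 33.1 CPM untreated (1.60, SE 0.10). Both genes showed about the same level in the replicates of a group and a gap between the groups many times that spread. Socs3, a cytokine signalling inhibitor, reached 54.4 and 57.7 CPM with LPS against 20.6 and 23.9 CPM untreated (1.33, SE 0.13, adjusted p = 2.16e-06). Ikbke, a kinase upstream of interferon regulatory factors, stood at 135 and 149 CPM with LPS against 67.9 and 73.3 CPM untreated (1.01, SE 0.10). Fos, a subunit of AP-1, went the other way, with 2.78 and 2.67 CPM with LPS and 6.47 and 5.63 CPM untreated (-1.15, SE 0.19, adjusted p = 0.000790).

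Promoter sequence was read for the genes of largest change among transporters, enzymes, receptors and transcription factors, to show what letters lie upstream of genes that moved. RefSeq windows of the 250 bases before the annotated start (build GRCm38.p6) were searched on both strands for an NF-kB-like pattern (GGG, then 3 bases of any kind, then TTCC), an interferon response element-like pattern (GAAA, then 2 bases of any kind, then GAAA), AP-1 (TGANTCA), a cyclic AMP element (TGACGTCA), a PU.1 or ETS-like pattern (GAGGAAGT), an E-box (CACGTG) and TATAAA. Of all 32851 windows of this length in the table, 4.65% held the first pattern, 2.98% the second, 6.75% AP-1, 1.55% the cyclic AMP element, 2.44% the ETS-like pattern, 6.02% the E-box and 12.4% TATAAA. Of the 8 genes that the rule gave (4 higher and 4 lower), Isg15 and Fcrl1 held a match, and Traf1, Kcnf1, Cmpk2, Ccr1, Gpr35 and Nek8 held none of these letters in the window. For Cmpk2, Gpr35 and Nek8 the window did not end at the start of an annotated transcript. The windows of Cmpk2 and Nek8 also touched annotated exons. A lack of matches in these windows therefore cannot be read as a lack of them at the promoter. The fall of Nek8 (log2 fold change -1.31) was not called in every fit that left out 1 library. Marco, a scavenger receptor, and Nfkbia were added after values were seen, to show an NF-kB-like match upstream of genes that rose. The sequences follow 5′ to 3′ on the strand of the gene, with matches in capitals.
Isg15, chr4:156200819-156201068, strand minus: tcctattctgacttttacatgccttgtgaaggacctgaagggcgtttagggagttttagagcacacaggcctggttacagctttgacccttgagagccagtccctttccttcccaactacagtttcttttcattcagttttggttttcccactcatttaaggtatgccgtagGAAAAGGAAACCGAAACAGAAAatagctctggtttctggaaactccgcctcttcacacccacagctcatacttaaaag
Marco, chr1:120505025-120505274, strand minus: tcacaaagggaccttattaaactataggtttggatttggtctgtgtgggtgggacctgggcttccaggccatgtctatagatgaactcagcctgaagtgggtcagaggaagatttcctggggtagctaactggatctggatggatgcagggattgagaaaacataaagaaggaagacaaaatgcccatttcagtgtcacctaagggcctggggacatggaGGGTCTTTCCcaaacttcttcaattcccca
Nfkbia, chr12:55492648-55492897, strand minus: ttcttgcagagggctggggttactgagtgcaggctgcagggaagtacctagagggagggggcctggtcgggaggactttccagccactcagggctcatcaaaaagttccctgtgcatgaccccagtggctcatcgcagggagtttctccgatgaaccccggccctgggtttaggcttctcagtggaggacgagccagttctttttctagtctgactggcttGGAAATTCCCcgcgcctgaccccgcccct
Fcrl1, chr3:87376137-87376386, strand plus: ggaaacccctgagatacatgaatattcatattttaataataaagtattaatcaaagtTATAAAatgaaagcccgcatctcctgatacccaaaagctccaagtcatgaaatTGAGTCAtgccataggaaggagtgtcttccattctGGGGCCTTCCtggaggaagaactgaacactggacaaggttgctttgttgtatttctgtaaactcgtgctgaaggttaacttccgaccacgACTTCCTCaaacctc
Isg15 held 3 overlapping interferon response element-like matches, whose first bases lay at positions -78, -72 and -66 from the start (the last base of each sequence is position -1). The NF-kB-like match of Marco began at -30 and that of Nfkbia, on the reverse strand, at -29. Fcrl1, the only gene shown that fell, held TATAAA at -193, AP-1 at -140, an NF-kB-like match at -105 and the ETS-like pattern, on the reverse strand, at -15. A window was matched to 742 of 915 protein-coding genes called higher (81.1%) and to 9108 of 11322 tested (80.4%). A gene was counted when any of its windows held the pattern. These shares are therefore of genes, unlike the shares of the 32851 windows above. The NF-kB-like pattern was in 8.89% of the 742 genes called higher against 6.19% of the 9108 tested. The interferon-like pattern was in 6.33% against 3.22%, and AP-1 in 10.2% against 5.48%, as descriptions without a test. TATAAA was in 78 of the 742 genes called higher against 683 of the 9108 tested. For the other patterns the shares of genes were 3.24% against 3.18% for the ETS-like pattern, 7.95% against 10.2% for the E-box and 1.89% against 3.17% for the cyclic AMP element. Among the 702 genes with a window that were called higher outside the cytokine and interferon lists, the NF-kB-like share was 7.98%, the interferon-like share 4.27% and the AP-1 share 9.12%. The same comparison is void for genes called lower (79.8% matched) and for the genes changed at least 2-fold (77.3% of the higher and 70.8% of the lower matched), because fewer than 80% had a window.

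Transporters and channels were raised more often than lowered. Of 317 measured, 46 rose (14.5%, against 7.66% of all genes) and 14 fell (4.42%, against 4.16%), with a median change of 0.02 beside -0.03 for all genes. Kcnf1 (chromosome 12, 17172100 to 17176888), an electrically silent potassium channel subunit that modifies other channels, had 12.5 and 10.7 CPM with LPS, against 0.411 and 0.651 CPM untreated (log2 fold change 4.41, SE 0.25, adjusted p = 6.83e-09). The efflux pump Abcb1a, P-glycoprotein (chromosome 5, 8660077 to 8748575), had 5.27 and 4.81 CPM with LPS against 0.359 and 0.186 CPM untreated (4.19, SE 0.32, adjusted p = 1.68e-07). Both genes were barely detected without LPS and were well above that in each treated library. Among 36 ABC transporters 8 rose (22.2%) and 2 fell (5.56%). Abcc5, an exporter of cyclic nucleotides, rose 3.96-fold to 241 and 250.1 CPM with LPS, against 61.1 and 62.9 CPM untreated (adjusted p = 1.33e-09). Abcc1, which exports glutathione conjugates, rose to 173 and 172 CPM with LPS, against 105 and 115 CPM untreated (0.65, SE 0.10).

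Amino acid carriers included genes of both directions: of 29 measured, 9 rose (5 in every fit that left out 1 library) and 3 fell (0 in every such fit). As shares, 31.0% were higher and 10.3% lower, against 7.66% and 4.16% of all genes. Slc7a11, which imports cystine in exchange for glutamate, was 13.4-fold higher, with 62.7 and 75.5 CPM with LPS and 4.77 and 5.54 CPM untreated (adjusted p = 6.34e-11). The carriers next in size of change rose by less than 2-fold. The lysosomal peptide and histidine carrier Slc15a3 had 488 and 459 CPM with LPS and 245 and 251 CPM untreated (0.93, SE 0.11). The aromatic amino acid carrier Slc16a10 had 93.5 and 94.7 CPM with LPS and 47.5 and 59.5 CPM untreated (0.81, SE 0.12). Slc7a8, an exchanger of neutral amino acids, had 90.3 and 89.4 CPM with LPS and 50.4 and 61.5 CPM untreated (0.68, SE 0.12). Slc7a5, the large neutral amino acid exchanger, fell to 49.6 and 51.8 CPM with LPS, against 65.8 and 78.3 CPM untreated (-0.51, SE 0.13, adjusted p = 0.0203), and this call was lost at adjusted p = 0.145 without LPS replicate 1, 0.101 without LPS replicate 2 and 0.138 without untreated replicate 2. Of the glucose carriers, Slc2a6, a lysosomal hexose transporter, rose to 95.4 and 92.5 CPM with LPS against 52.9 and 59.7 CPM untreated (0.74, SE 0.12). The main glucose importer Slc2a1 had 187 and 163 CPM with LPS and 109.8 and 145 CPM untreated and did not pass the test (adjusted p = 0.0689), although without untreated replicate 2 its adjusted p was 0.0119.

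Of 44 carriers of nucleosides, nucleotide sugars and organic ions, 5 rose (11.4%) and 1 fell, with 4 and 0 of these called in every fit that left out 1 library and a median change of -0.05. Most of the list was not called, and 4 of the carriers that rose are described here. Slc22a4, which takes up ergothioneine and carnitine, had 7.14 and 7.81 CPM with LPS against 2.51 and 2.93 CPM untreated (1.45, SE 0.18, adjusted p = 3.56e-05). Slc28a2, a sodium-coupled nucleoside carrier, had 3.51 and 3.19 CPM with LPS against 1.49 and 1.35 CPM untreated (1.23, SE 0.23). The heme carrier Slc48a1 reached 198 and 183 CPM with LPS against 102 and 116 CPM untreated (0.80, SE 0.11), and the choline carrier Slc44a1 reached 146 and 148 CPM with LPS against 86.7 and 95.4 CPM untreated (0.69, SE 0.09). In each of these 4 genes the lower LPS library exceeded the higher untreated library, as in every gene called higher. The counting is not stated to use strand, so reads of overlapping genes on opposite strands cannot be told apart. Slc48a1 overlaps Hdac7 in this way, Slc15a3 overlaps Tmem132a, Slc7a5 overlaps Gm20388 and Trpm4 overlaps Rpl14-ps1.

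Among 72 ion channel genes, 12 rose (16.7%, against 7.66% of all genes) and 2 fell (2.78%, against 4.16%). Aqp3, a channel for water and glycerol, had 40.4 and 38.2 CPM with LPS and 12.7 and 13.2 CPM untreated (1.60, SE 0.12, adjusted p = 1.69e-07). Gja1, the gap junction protein connexin 43, had 16.7 and 15.7 CPM with LPS and 6.06 and 6.05 CPM untreated (1.42, SE 0.16). Gja1 is also an astrocyte marker, and 4 of the 9 astrocyte markers were at 0 in all 4 libraries. Trpm4, a cation channel opened by calcium, had 13 and 14.1 CPM with LPS and 5.80 and 6.05 CPM untreated (1.19, SE 0.15). Lrrc8c and Lrrc8d, subunits of the volume-regulated anion channel, rose together. Lrrc8c had 52.4 and 58.6 CPM with LPS and 28.2 and 31.8 CPM untreated (0.89, SE 0.11), and Lrrc8d had 136 and 144 CPM with LPS and 91.1 and 94.9 CPM untreated (0.59, SE 0.09). The inward rectifier potassium channel Kcnj2 fell to 20.6 and 22.2 CPM with LPS, against 31.9 and 33.9 CPM untreated (-0.62, SE 0.12, adjusted p = 0.00222). Atp6v0d2, a subunit of the vacuolar proton pump, fell to 1.88 and 1.33 CPM with LPS, against 4.62 and 3.91 CPM untreated (-1.42, SE 0.29), and that call was lost without LPS replicate 2 (adjusted p = 0.0933). The flippase Atp8b4, which moves phospholipids across the membrane, rose to 241 and 254 CPM with LPS against 159 and 140.2 CPM untreated (0.73, SE 0.10).

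**Figure D2:**
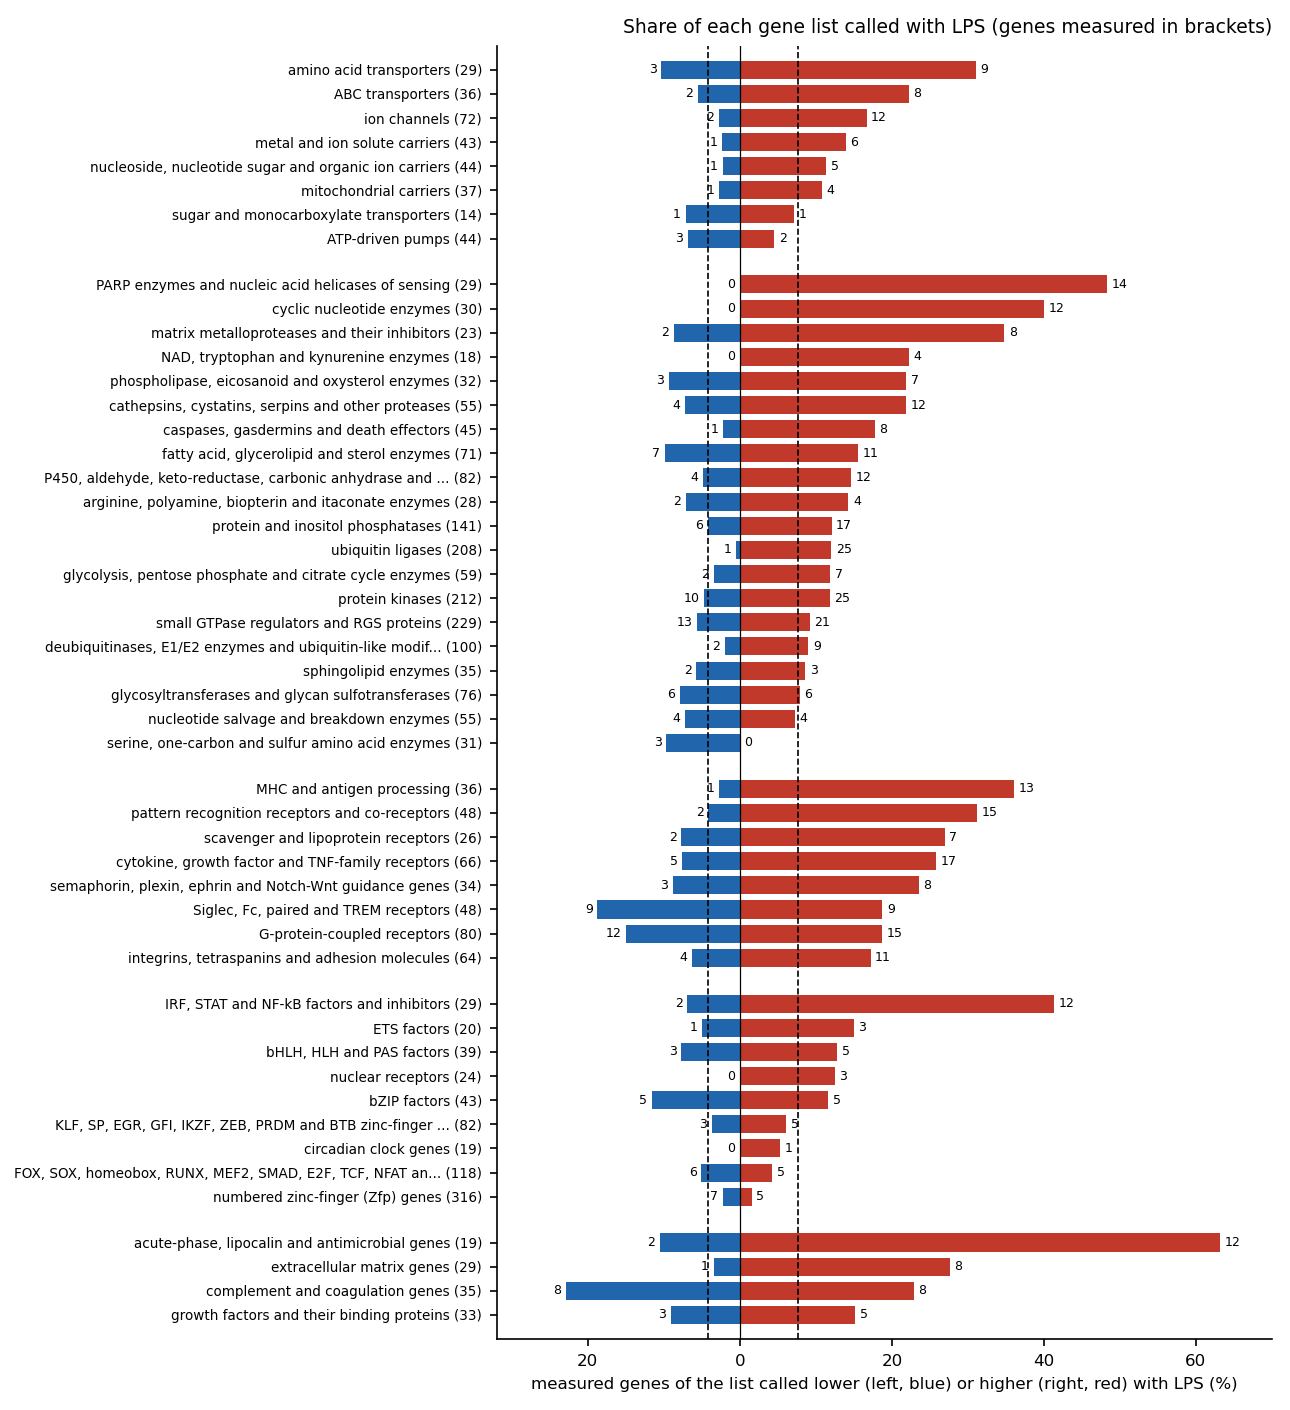
Share of the measured genes of each list called higher (right, red) or lower (left, blue) with LPS, in percent, with the number of genes called at the end of each bar and the number measured in brackets. Dashed lines mark the shares of all genes tested, 7.66% higher and 4.16% lower.

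In the 4 fits that left out 1 library, the following numbers of genes stayed called each time. Of the transporter lists, 5 ABC transporters stayed higher and 0 lower, and 9 ion channel genes stayed higher and 1 lower. Of the enzyme lists, 12 genes of the list of cyclic nucleotide enzymes and oligoadenylate synthetases, 15 ubiquitin ligases and 10 PARP enzymes and helicases stayed higher and 0 lower. Likewise 12 phosphatases stayed higher and 3 lower, 11 small GTPase regulators stayed higher and 6 lower, and 3 sugar-transferring enzymes stayed higher and 2 lower. Of the receptor lists, 13 pattern recognition receptors and 8 antigen processing genes stayed higher and 0 lower, whereas 9 Siglec, Fc, paired and TREM receptors stayed higher and 6 lower. Of the transcription factor lists, 7 IRF, STAT and NF-kB genes stayed higher and 0 lower, and 2 bZIP factors stayed higher and 2 lower. Of the secreted lists, 7 complement and coagulation genes stayed higher and 4 lower, 10 acute-phase genes stayed higher and 1 lower, and 6 matrix genes stayed higher and 1 lower.

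Of 1553 enzyme genes, 208 rose (13.4%) and 72 fell (4.64%), and the lists within the class differed widely. PARP enzymes and nucleic acid helicases had 14 of 29 higher (48.3%, against 7.66% of all genes) and 0 lower, a list that shares interferon-inducible genes. Enzymes of serine, one-carbon and sulfur amino acid metabolism had 0 of 31 higher and 3 lower (9.68%, against 4.16% of all genes), with 1 still called in every fit that left out 1 library. The genes that fell there included Mat2a, which makes the methyl donor S-adenosylmethionine, with 45.8 and 48.9 CPM with LPS and 105 and 80.3 CPM untreated (-0.96, SE 0.15, adjusted p = 0.000351). Enzymes of polyamine synthesis also fell. Odc1, ornithine decarboxylase, had 126 and 111 CPM with LPS and 203 and 181 CPM untreated (-0.70, SE 0.11). Srm, spermidine synthase, had 48.6 and 52.5 CPM with LPS and 77.8 and 84.6 CPM untreated (-0.68, SE 0.11, adjusted p = 0.000727). The list of arginine, polyamine, biopterin and itaconate enzymes had 4 of 28 higher (14.3%, against 7.66% of all genes) and 2 lower (7.14%, against 4.16%). In that list, Gch1, the first enzyme of tetrahydrobiopterin synthesis, rose to 50.3 and 47.8 CPM with LPS, against 24.3 and 26.1 CPM untreated (0.96, SE 0.11). Acod1, the itaconate synthase, had 1203 and 1153 CPM with LPS and 99.6 and 85.9 CPM untreated, the largest change among the named genes of that list (3.67, SE 0.13).

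Enzymes of lipid mediators and lipid storage were among those that rose. Ptges, the inducible prostaglandin E synthase, was 10.2-fold higher, with 31.7 and 30.6 CPM with LPS and 2.98 and 3.12 CPM untreated (adjusted p = 1.20e-10). Lpcat2, which makes platelet-activating factor, had 39.4 and 38.9 CPM with LPS and 10.6 and 11.6 CPM untreated (1.82, SE 0.11), and its receptor Ptafr had 17.9 and 20.7 CPM with LPS and 6.31 and 7.54 CPM untreated (1.48, SE 0.14). Enzyme and receptor of this mediator were both higher. Acsl1, which activates long-chain fatty acids, reached 142 and 149 CPM with LPS against 56.7 and 55.5 CPM untreated (1.38, SE 0.09, adjusted p = 2.99e-08). Dgat2, the last enzyme of triglyceride synthesis, reached 211 and 215 CPM with LPS against 98.8 and 116 CPM untreated (0.98, SE 0.12). Of 71 fatty acid, glycerolipid and sterol enzymes 11 rose (5 in every fit that left out 1 library) and 7 fell (0 in every such fit). For these 71 the shares were 15.5% higher and 9.86% lower, against 7.66% and 4.16% of all genes. Among sphingolipid enzymes, Sgms2, a sphingomyelin synthase, rose to 43.0 and 44.1 CPM with LPS against 21.1 and 28.3 CPM untreated (0.82, SE 0.14), and the phosphodiesterase Smpdl3b rose to 125 and 120.1 CPM with LPS against 63.9 and 69.4 CPM untreated (0.88, SE 0.11).

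Of 55 nucleotide salvage and breakdown enzymes, 4 rose (7.27%, near the 7.66% of all genes) and 4 fell (7.27%, against 4.16%). The median change of this list was -0.06. Of 18 enzymes of NAD, tryptophan and kynurenine metabolism, 4 rose (22.2%) and 0 fell. Cmpk2, a mitochondrial nucleotide kinase also counted among interferon-inducible genes, had 28.4 and 28.6 CPM with LPS and 1.13 and 1.67 CPM untreated (4.33, SE 0.20, adjusted p = 6.68e-10). Ampd3, an AMP deaminase, had 61.3 and 67.4 CPM with LPS and 28.7 and 31.5 CPM untreated (1.10, SE 0.11). Ampd3 overlaps Rnf141 on the opposite strand. Entpd1, the ectonucleotidase CD39 that removes extracellular ATP, fell to 25.4 and 24.7 CPM with LPS, against 40.6 and 37.1 CPM untreated (-0.64, SE 0.10, adjusted p = 0.000574). Nt5c2, a cytosolic nucleotidase, fell to 27.4 and 30.0 CPM with LPS, against 44.0 and 44.8 CPM untreated (-0.63, SE 0.10). Cd38, a surface enzyme that consumes NAD, rose 2.80-fold to 216 and 203 CPM with LPS, against 76.6 and 73.0 CPM untreated (adjusted p = 1.75e-08). Nampt, the rate-limiting enzyme of NAD salvage, rose to 543 and 524 CPM with LPS, against 385 and 321 CPM untreated (0.60, SE 0.12). A list of cyclic nucleotide enzymes had 12 of 30 higher and 0 lower, but 8 of the 12 were oligoadenylate synthetases or their relatives, interferon-inducible genes that are not cyclic nucleotide enzymes. The 4 cyclic nucleotide enzymes were Gucy2g, Pde10a, Pde4b and Pde8b. Pde4b, a cyclic AMP phosphodiesterase, had 40.1 and 45.8 CPM with LPS and 11.4 and 11.5 CPM untreated (1.91, SE 0.11). Pde8b, of the same function, had 7.93 and 8.43 CPM with LPS and 3.03 and 1.63 CPM untreated (1.82, SE 0.23).

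Enzymes of central carbon metabolism showed few changes that held in every fit. Of 59 enzymes of glycolysis, the pentose phosphate pathway and the citrate cycle, 7 rose (11.9%, and 3 in every fit that left out 1 library) and 2 fell (0 in every such fit), with a median of 0.00. Me1, the malic enzyme that makes NADPH, rose to 35.7 and 40.7 CPM with LPS against 16.8 and 19.1 CPM untreated (1.09, SE 0.11, adjusted p = 6.12e-06). Gbe1, the glycogen branching enzyme, rose to 31.2 and 28.4 CPM with LPS against 20.5 and 20.1 CPM untreated (0.55, SE 0.10). The hexokinase Hk2 had 132 and 122 CPM with LPS and 109 and 135 CPM untreated, and the groups overlapped (adjusted p = 0.832). Lactate dehydrogenase Ldha had 1498 and 1273 CPM with LPS and 1084 and 1292 CPM untreated (adjusted p = 0.485).

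Sugar-transferring enzymes changed in equal numbers in both directions: of 76 glycosyltransferases and glycan sulfotransferases 6 rose (7.89%, against 7.66% of all genes) and 6 fell (7.89%, against 4.16%). The share that rose was near that of all genes. Among those that rose were sialyltransferases of the ST3 type. St3gal1, which caps O-linked glycans with sialic acid, had 129 and 136 CPM with LPS and 33.1 and 40.3 CPM untreated (1.85, SE 0.11, adjusted p = 1.67e-08). St3gal5, which makes the ganglioside GM3, had 55.4 and 55.4 CPM with LPS and 29.7 and 31.8 CPM untreated (0.85, SE 0.11). Those that fell included St8sia4, a polysialyltransferase, with 8.96 and 8.19 CPM with LPS and 14.7 and 14.4 CPM untreated (-0.77, SE 0.14). Chst10, the sulfotransferase of the HNK-1 epitope, had 6.90 and 6.00 CPM with LPS and 12.4 and 13.8 CPM untreated (-1.03, SE 0.15, adjusted p = 0.000176). Of the detoxifying enzymes, the glutathione transferase Gstm2 had 87.1 and 86.9 CPM with LPS and 44.1 and 37.1 CPM untreated (1.10, SE 0.11), and its close relative Gstm1 had 396 and 442 CPM with LPS and 253 and 202 CPM untreated (0.88, SE 0.13). The glucuronosyltransferase Ugt1a6b had 24.8 and 27.8 CPM with LPS and 4.67 and 5.95 CPM untreated (2.30, SE 0.16). The division of reads among near-identical Gstm genes, and among the Ugt1a genes that share exons, is uncertain.

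Secreted proteases and protease inhibitors were both among the genes that rose. Of 23 matrix metalloproteases and inhibitors 8 rose (5 in every fit that left out 1 library) and 2 fell. Shares of that list were 34.8% higher and 8.70% lower, against 7.66% and 4.16% of all genes. Mmp9, a gelatinase, had 9.51 and 10.4 CPM with LPS and 0.872 and 1.44 CPM untreated (3.09, SE 0.21, adjusted p = 4.84e-08). Mmp14, the membrane-bound protease that activates Mmp2, had 4.90 and 5.81 CPM with LPS and 0.616 and 1.26 CPM untreated (2.50, SE 0.31). Mmp2 itself, the second gelatinase, had 4.18 and 4.24 CPM with LPS and 1.59 and 1.86 CPM untreated (1.28, SE 0.24). All 3 stood below 2 CPM without LPS. Plau, the urokinase plasminogen activator, had 192 and 185 CPM with LPS and 69.4 and 60.8 CPM untreated (1.54, SE 0.10). Slpi, a secreted inhibitor of serine proteases, was 11.6-fold higher, with 999 and 966 CPM with LPS and 94.5 and 74.8 CPM untreated (adjusted p = 7.55e-11). The lysosomal protease legumain, Lgmn, fell to 776 and 826 CPM with LPS, against 1122 and 1194 CPM untreated (-0.53, SE 0.10). Serpinb1a, an inhibitor of neutrophil proteases, fell to 0.666 and 0.619 CPM with LPS, against 3.18 and 2.09 CPM untreated (-2.03, SE 0.45, adjusted p = 0.00701), and that call was lost without LPS replicate 1 (adjusted p = 0.0556) and without LPS replicate 2 (adjusted p = 0.0881).

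Signalling enzymes changed more upward than downward, as all genes tested did. For protein kinases the shares were 11.8% higher and 4.72% lower, against 7.66% and 4.16% of all genes, so the lower share was near that of all genes. Of 212 protein kinases 25 rose (9 in every fit that left out 1 library) and 10 fell (2 in every such fit). Jak2, the cytokine receptor kinase, had 175 and 182 CPM with LPS and 48.9 and 47.5 CPM untreated (1.89, SE 0.09, adjusted p = 7.04e-10). Mapkapk2, the p38 target that stabilizes cytokine mRNAs, had 1026 and 983 CPM with LPS and 292 and 423 CPM untreated (1.49, SE 0.18). Its untreated libraries differed from each other more than its LPS libraries did, and the groups did not overlap, as in every gene called. Plk2, a polo-like kinase, had 123 and 133 CPM with LPS and 45.8 and 49.0 CPM untreated (1.43, SE 0.10). The kinases that fell included Fes, with 12.0 and 11.6 CPM with LPS and 21.8 and 23.4 CPM untreated (-0.94, SE 0.12, adjusted p = 8.46e-05). Of 141 phosphatase genes 17 rose (12.1%, against 7.66% of all genes) and 6 fell (4.26%, near the 4.16% of all genes). The tyrosine phosphatase Ptpn14 rose to 198 and 207 CPM with LPS against 73.6 and 75.8 CPM untreated (1.44, SE 0.10), and Ptpn7, a phosphatase of MAP kinases, fell to 43.5 and 47.8 CPM with LPS against 69.3 and 73.6 CPM untreated (-0.65, SE 0.10).

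Ubiquitin enzymes were nearly all raised where they changed: of 208 ligases 25 rose and 1, Rnf227, fell, and the call of Rnf227 was lost without LPS replicate 2 (adjusted p = 0.315) and without untreated replicate 1 (adjusted p = 0.205). For these ligases the shares were 12.0% higher and 0.481% lower, against 7.66% and 4.16% of all genes. Traf1, an adaptor of TNF receptors listed there by its family, had 40.6 and 40.1 CPM with LPS and 1.23 and 0.977 CPM untreated (5.19, SE 0.18, adjusted p = 2.20e-11). Rnf144a, a RING ligase, had 5.39 and 4.95 CPM with LPS and 0.667 and 1.26 CPM untreated (2.40, SE 0.26). Isg15, the ubiquitin-like modifier whose promoter is shown above, rose to 105 and 96.1 CPM with LPS against 5.18 and 5.12 CPM untreated (4.29, SE 0.16). Usp18, which removes it, rose to 18.4 and 18 CPM with LPS against 7.03 and 6.28 CPM untreated (1.45, SE 0.13). Parp14, a mono-ADP-ribosyltransferase, had 60.9 and 68.1 CPM with LPS and 14.1 and 16.9 CPM untreated (2.06, SE 0.12). Regulators of small GTPases were called at shares near those of all genes, with 21 of 229 higher (9.17%, against 7.66%) and 13 lower (5.68%, against 4.16%). Cdc42ep2, an effector of Cdc42, had 19.4 and 16.9 CPM with LPS and 3.28 and 3.07 CPM untreated (2.51, SE 0.17), and Rasa4, which switches Ras off, had 36.3 and 35.3 CPM with LPS and 8.52 and 10.0 CPM untreated (1.94, SE 0.12). Rasgrp3, which switches Ras on, fell to 54.6 and 56.1 CPM with LPS against 106 and 118 CPM untreated (-1.02, SE 0.10, adjusted p = 3.19e-06). Rgs2, which shortens G-protein signals, fell to 11.8 and 11.7 CPM with LPS against 26.2 and 22.6 CPM untreated (-1.05, SE 0.13).

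**Figure D3:**
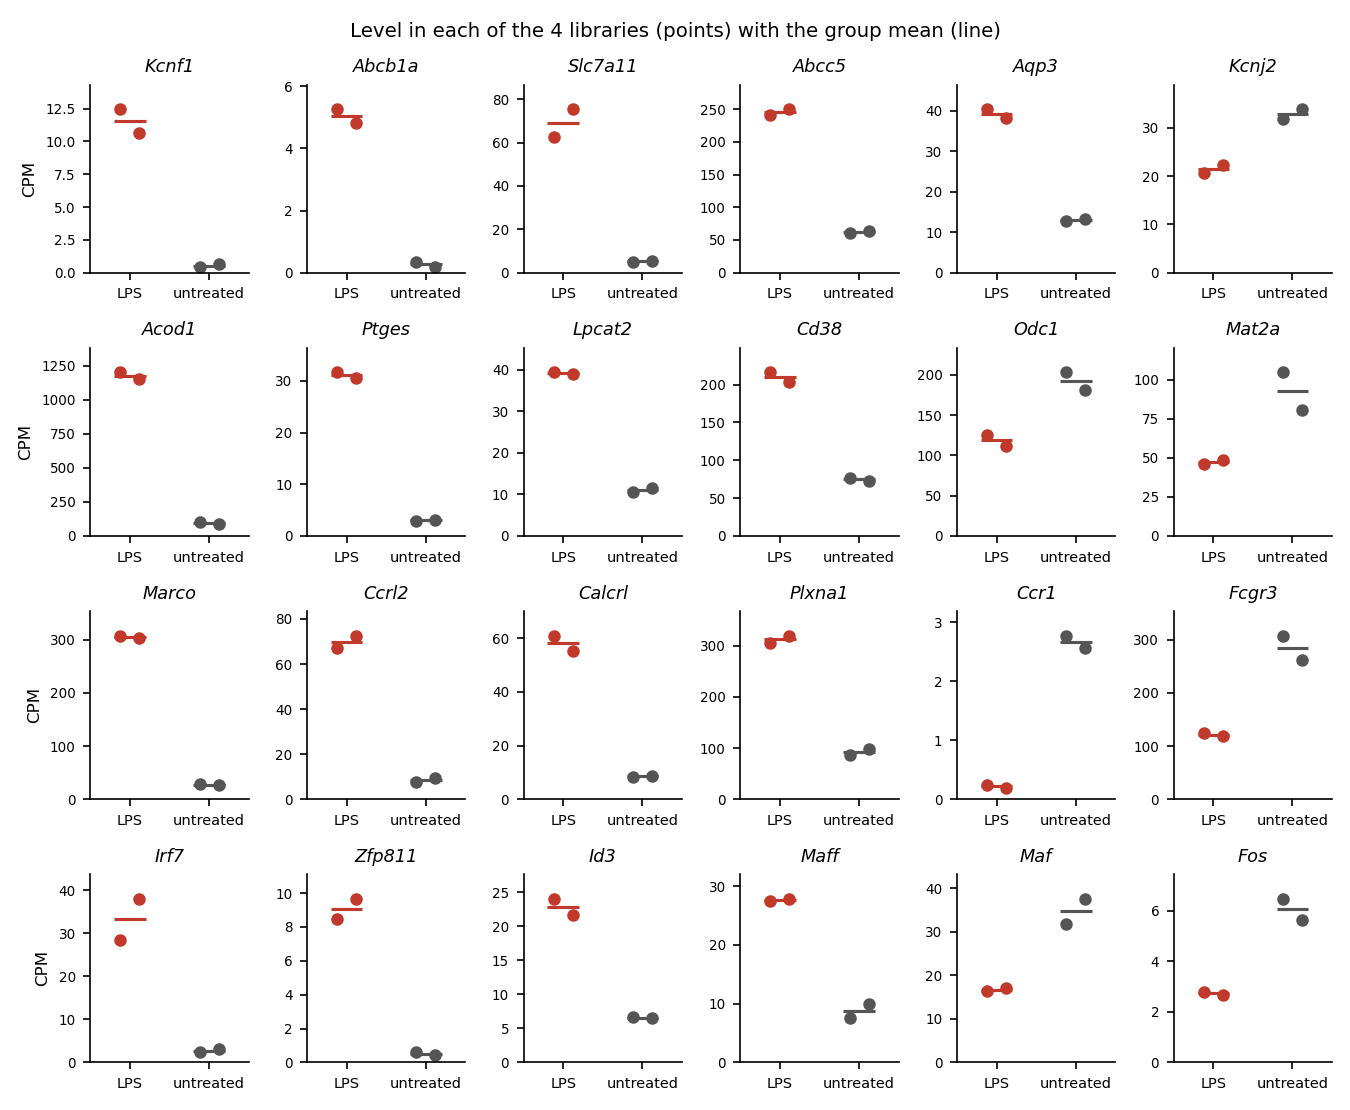
Level in CPM (vertical axes from 0) of 24 genes in each library, with 2 LPS libraries on the left and 2 untreated libraries on the right of every panel and lines at the group means. The rows hold transporters and channels, enzymes, receptors, and transcription factors. All 24 are called genes, and the groups did not overlap in any gene called. Of all genes tested, 23% showed such a separation in the higher direction and 26.6% in the lower.

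Receptors and surface proteins held the highest shares of called genes among transporters, enzymes, receptors and transcription factors, 95 of 401 higher (23.7%) and 38 lower (9.48%). Of 48 pattern recognition receptors and co-receptors, 15 rose (31.25%, against 7.66% of all genes) and 2 fell (4.17%, near the 4.16% of all genes). Clec4e, the lectin Mincle that binds mycobacterial and dead-cell lipids, had 1172 and 1122 CPM with LPS and 121 and 84.3 CPM untreated (3.48, SE 0.16, adjusted p = 4.44e-10). Nlrp3, the inflammasome sensor, had 27.1 and 26.5 CPM with LPS and 8.11 and 9.44 CPM untreated (1.61, SE 0.14). Tlr2, which senses bacterial lipoproteins, had 286 and 269 CPM with LPS and 142 and 146 CPM untreated (0.95, SE 0.11). In each of the 3 both LPS libraries lay above both untreated libraries, as in every gene called higher. Ifih1, the sensor of long double-stranded RNA also known as MDA5, had 27.8 and 30.8 CPM with LPS and 5.03 and 6.65 CPM untreated (2.32, SE 0.14). Marco and Olr1, scavenger receptors for bacteria and oxidized lipoprotein, rose as well. Olr1 had 4.42 and 4.00 CPM with LPS and 0.359 and 0.744 CPM untreated (2.89, SE 0.30), and Marco had 308 and 303 CPM with LPS and 28.7 and 26.3 CPM untreated (3.47, SE 0.10). Colec12, a scavenger receptor of the collectin family, fell to 187 and 187 CPM with LPS against 290.3 and 266 CPM untreated (-0.57, SE 0.09).

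G-protein-coupled receptors changed in both directions, with 15 of 80 higher (12 in every fit that left out 1 library) and 12 lower (6 in every such fit). These were shares of 18.75% higher and 15.0% lower, against 7.66% and 4.16% of all genes. Ccrl2, a chemerin-binding receptor that does not signal through G proteins, had 67.1 and 72.7 CPM with LPS and 7.65 and 9.21 CPM untreated (3.05, SE 0.14, adjusted p = 3.68e-10). Calcrl, the receptor of calcitonin gene-related peptide and adrenomedullin, had 61.0 and 55.2 CPM with LPS and 8.37 and 8.75 CPM untreated (2.76, SE 0.12, adjusted p = 2.84e-10). Adora2a, an adenosine receptor coupled to cyclic AMP, had 4.18 and 3.86 CPM with LPS and 0.872 and 1.40 CPM untreated (1.80, SE 0.26). Fpr1, which senses formylated bacterial peptides, had 7.63 and 9.81 CPM with LPS and 3.54 and 2.05 CPM untreated (1.66, SE 0.22). These rises spanned receptors for peptides, purines and bacterial products. In the lower direction, the chemokine receptor Ccr1 (chromosome 9, 123962124 to 123968692) had 0.242 and 0.190 CPM with LPS and 2.77 and 2.56 CPM untreated (-3.60, SE 0.51, adjusted p = 0.000154), close to the limit that 3 counts set in the LPS libraries. Gpr35, a receptor of kynurenic acid and lysophosphatidic acid, had 5.63 and 4.57 CPM with LPS and 13.9 and 13.4 CPM untreated (-1.43, SE 0.17, adjusted p = 3.17e-05). Cxcr4, the receptor of Cxcl12, had 13.2 and 14.4 CPM with LPS and 26.0 and 24.9 CPM untreated (-0.88, SE 0.12).

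Immunoglobulin-like receptors changed in equal numbers in both directions. Of 48 Siglec, Fc, paired and TREM receptors, 9 rose (18.75%, against 7.66% of all genes) and 9 fell (18.75%, against 4.16%). Those that rose included Pirb, an inhibitory receptor for class I molecules, with 36.7 and 36.3 CPM with LPS and 11.7 and 12.7 CPM untreated (1.58, SE 0.12, adjusted p = 1.68e-07). Pirb belongs to a family of near-identical copies, so its share of reads is uncertain. Cd274, the ligand PD-L1, had 147 and 152 CPM with LPS and 74.7 and 61.8 CPM untreated (1.13, SE 0.12). Slamf7, a homophilic receptor of leukocytes, had 5.63 and 6.76 CPM with LPS and 1.69 and 1.63 CPM untreated (1.90, SE 0.22). In the lower direction, the IgG receptor Fcgr3 had 124 and 119 CPM with LPS and 308 and 263 CPM untreated (-1.23, SE 0.11, adjusted p = 7.77e-07). Cd300a, an inhibitory receptor for phosphatidylserine, had 32.1 and 31.4 CPM with LPS and 76.4 and 72.0 CPM untreated (-1.22, SE 0.11, adjusted p = 1.72e-06). Fcrl1, the Fc receptor-like gene whose promoter is shown above, had 1.94 and 2.0 CPM with LPS and 5.34 and 5.44 CPM untreated (-1.45, SE 0.27). The replicates of these 3 genes lay close together, and the LPS libraries were below both untreated libraries, as in every gene called lower.

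Of 66 cytokine, growth factor and TNF-family receptors 17 rose (9 in every fit that left out 1 library) and 5 fell (0 in every such fit). The share higher was 25.8% and the share lower 7.58%, against 7.66% and 4.16% of all genes. Il20rb, a chain of the receptors of IL-20 family cytokines, had 6.48 and 5.57 CPM with LPS and 1.64 and 1.26 CPM untreated (2.05, SE 0.21). Met, the receptor of hepatocyte growth factor, had 12.7 and 11.6 CPM with LPS and 3.44 and 4.33 CPM untreated (1.64, SE 0.17, adjusted p = 7.43e-06). Tnfrsf1b, the second TNF receptor, had 477 and 471 CPM with LPS and 165 and 195 CPM untreated (1.40, SE 0.13, adjusted p = 1.89e-06). For the other TNF receptor, Tnfrsf1a, the values were 52.6 and 55.6 CPM with LPS and 55.6 and 61.1 CPM untreated, which did not pass the test (adjusted p = 0.575). The difference between the changes of the 2 receptors was not tested. Fas, the death receptor, had 86.6 and 88.1 CPM with LPS and 39.3 and 31.6 CPM untreated (1.30, SE 0.13). Inhibitors of death signals rose too. Cflar, which blocks caspase 8, had 151 and 156 CPM with LPS and 76.7 and 75.2 CPM untreated (1.02, SE 0.09), and Birc3 had 97.6 and 97.2 CPM with LPS and 37.9 and 33.9 CPM untreated (1.44, SE 0.10).

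Guidance genes best known from axon growth changed, with 8 of 34 higher (23.5%, against 7.66% of all genes) and 3 lower, 6 and 1 of them in every fit that left out 1 library. Plxna1, a semaphorin receptor, had 306 and 320.3 CPM with LPS and 86.6 and 98.7 CPM untreated (1.76, SE 0.12, adjusted p = 6.48e-08). Nrp2, a neuropilin that acts as co-receptor with plexins, had 618 and 615 CPM with LPS and 226 and 293 CPM untreated (1.25, SE 0.13, adjusted p = 4.83e-06). Plxna1 overlaps Gm26811 on the opposite strand, which stood below 2 CPM. Plxnc1, a plexin of another subfamily, fell to 69.6 and 72.8 CPM with LPS against 116 and 134 CPM untreated (-0.81, SE 0.10). Rspo3, a secreted enhancer of Wnt signalling, had 20.9 and 22.6 CPM with LPS and 5.65 and 6.79 CPM untreated (1.80, SE 0.14). Of 64 adhesion genes 11 rose (17.2%, against 7.66% of all genes) and 4 fell, with 7 and 0 called in every fit that left out 1 library. Among them Sdc1, a heparan sulfate proteoglycan, had 98.5 and 94.1 CPM with LPS and 38.3 and 51.1 CPM untreated (1.11, SE 0.15). Of 36 genes of MHC and antigen processing, 13 rose (36.1%, against 7.66% of all genes) and 1 fell (2.78%, against 4.16%). Tapbp, which loads peptides on class I molecules, had 211 and 190.3 CPM with LPS and 72.9 and 93.7 CPM untreated (1.27, SE 0.16), and overlaps Zbtb22.

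**Figure D4:**
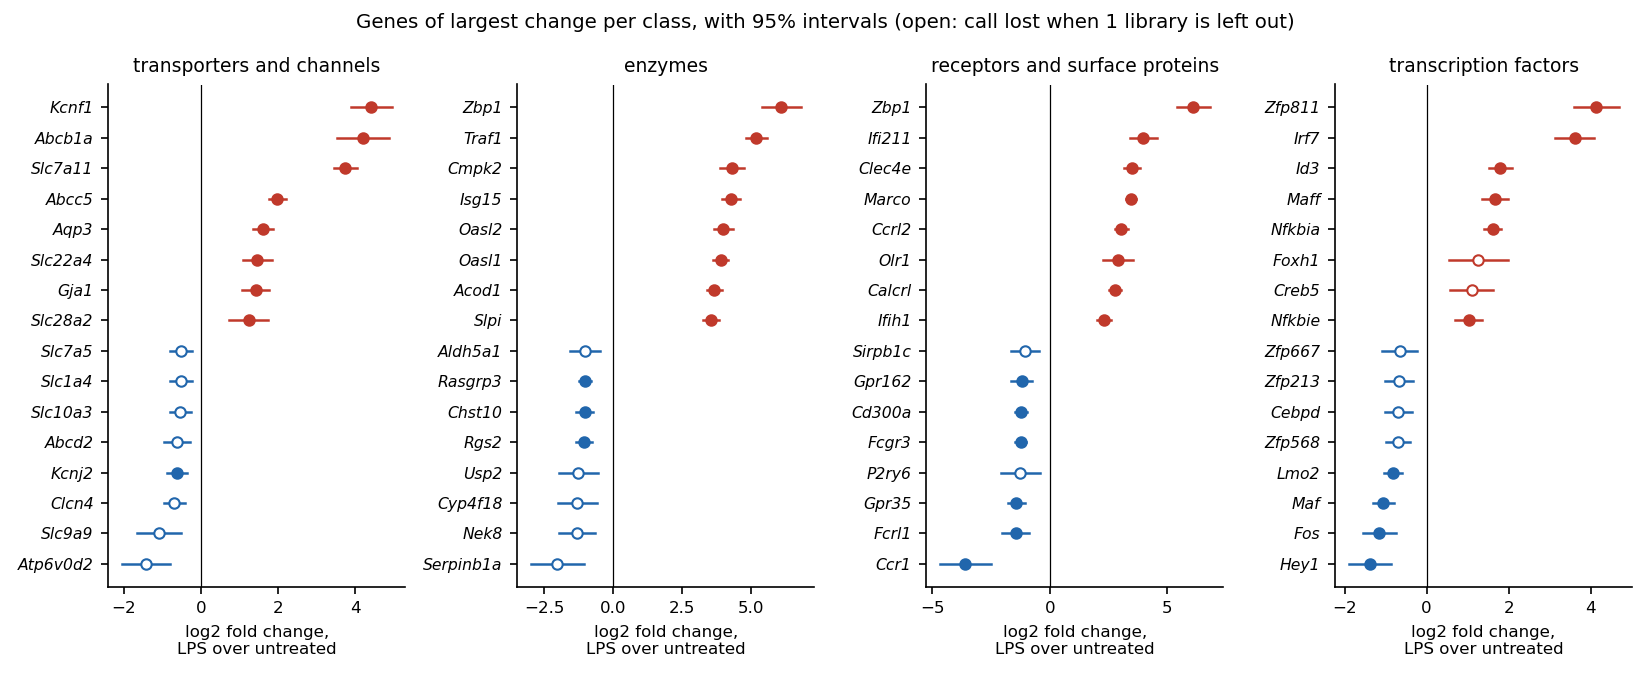
Log2 fold change of LPS over untreated (horizontal axes) with 95% intervals for the genes of largest change in each of 4 classes, up to 8 in each direction. Filled points kept their call in all 4 fits that left out 1 library and open points did not; all 8 transporters that rose are filled, and 1 of the 8 that fell is.

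Transcription factors were called about as often as all genes, 43 of 680 higher (6.32%) and 27 lower (3.97%). Most of the 316 numbered zinc-finger genes were not called, with 5 higher (1.58%, against 7.66% of all genes) and 7 lower (2.22%, against 4.16%). The exception in size was Zfp811 (chromosome 17, 32795676 to 32809931), a zinc-finger gene, with 8.48 and 9.66 CPM with LPS and 0.616 and 0.419 CPM untreated (4.13, SE 0.26, adjusted p = 1.83e-08). Of 29 IRF, STAT and NF-kB factors and inhibitors, 12 rose (41.4%, against 7.66% of all genes) and 2 fell (6.90%, against 4.16%). Irf7, the interferon regulatory factor of the amplification loop, had 28.5 and 38.0 CPM with LPS and 2.36 and 3.07 CPM untreated (3.61, SE 0.22, adjusted p = 1.83e-08). Irf9, a factor of the interferon response, had 19.2 and 18.3 CPM with LPS and 9.19 and 10.2 CPM untreated (0.95, SE 0.13). Irf7 overlaps Phrf1 on the opposite strand, and Irf9 overlaps Rnf31 on the same strand. The NF-kB subunit Rela had 53.0 and 54.1 CPM with LPS and 43.5 and 51.1 CPM untreated and did not pass the test (adjusted p = 0.409).

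The bZIP factors had 5 of 43 higher (11.6%, against 7.66% of all genes) and 5 lower (11.6%, against 4.16%). Members of 1 family were on both sides. Maff, a small Maf protein, rose to 27.5 and 27.9 CPM with LPS against 7.49 and 9.91 CPM untreated (1.66, SE 0.15, adjusted p = 1.37e-06). Maf, a large Maf protein of macrophages, fell to 16.3 and 17.0 CPM with LPS against 31.8 and 37.5 CPM untreated (-1.05, SE 0.12, adjusted p = 1.90e-05). Junb rose to 103 and 96.8 CPM with LPS against 54.9 and 66.7 CPM untreated (0.71, SE 0.13), and overlaps Prdx2 on the opposite strand. Fos, its AP-1 partner, fell. Id3, an inhibitor of helix-loop-helix factors, rose to 24.0 and 21.6 CPM with LPS against 6.62 and 6.47 CPM untreated (1.80, SE 0.13, adjusted p = 8.09e-08), and Id2 rose to 119 and 115 CPM with LPS against 79.6 and 71.8 CPM untreated (0.62, SE 0.09). Hey1, a Notch target repressor, fell to 2.36 and 1.76 CPM with LPS against 5.03 and 5.63 CPM untreated (-1.38, SE 0.24). Lmo2, a bridging factor of blood development, fell to 194 and 158 CPM with LPS against 312 and 312 CPM untreated (-0.83, SE 0.10, adjusted p = 4.45e-05), and Mef2c, a transcription factor also expressed in microglia, fell to 30.0 and 30.4 CPM with LPS against 41.1 and 45.6 CPM untreated (-0.52, SE 0.10). The myeloid master factor Spi1 had 96.0 and 103 CPM with LPS and 119 and 123 CPM untreated and did not pass the test (adjusted p = 0.108). Bcl6, a repressor, rose to 61.3 and 64.9 CPM with LPS against 37.3 and 35.5 CPM untreated (0.80, SE 0.11), and Ets2 rose to 197 and 209 CPM with LPS against 128 and 136 CPM untreated (0.62, SE 0.10).

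Secreted and matrix proteins had 33 of 114 higher (28.9%) and 14 lower (12.3%). Within complement and coagulation, 8 of 35 rose (22.9%, against 7.66% of all genes) and 8 fell (22.9%, against 4.16%). Factor B of the alternative pathway, Cfb, had 261 and 267 CPM with LPS and 0.308 and 0.233 CPM untreated (9.91, SE 0.17). C1s1, a protease of the classical pathway, rose to 14.3 and 15.4 CPM with LPS against 5.54 and 4.70 CPM untreated (1.54, SE 0.17). The C1q chain gene C1qc fell to 1.76 and 2.05 CPM with LPS against 11.5 and 9.49 CPM untreated (-2.45, SE 0.22, adjusted p = 1.53e-06), and C1qb fell to 6.42 and 5.67 CPM with LPS against 21.2 and 19.9 CPM untreated (-1.77, SE 0.20). The central component C3 had 594 and 634 CPM with LPS and 532 and 610.0 CPM untreated and did not pass the test (adjusted p = 0.627). Coagulation factor V, F5, fell to 0.666 and 1.29 CPM with LPS against 4.77 and 5.35 CPM untreated (-2.33, SE 0.29, adjusted p = 5.02e-05).

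Of 19 acute-phase, lipocalin and antimicrobial genes, 12 rose and 2 fell. Hp, haptoglobin, which binds free hemoglobin, had 1084 and 985 CPM with LPS and 87.6 and 98.4 CPM untreated (3.48, SE 0.17, adjusted p = 7.04e-10). Lcn2, lipocalin 2, which binds bacterial siderophores, had 2267 and 2142 CPM with LPS and 839.9 and 529 CPM untreated (1.69, SE 0.17). Saa1, a serum amyloid gene, had 2.78 and 2.52 CPM with LPS and no count in either untreated library, so that it was at least 17.2-fold higher when 3 counts per untreated library are taken as the limit. Saa1 and Saa2 are near-identical, and the division of reads between them is uncertain. The matrix genes had 8 of 29 higher (27.6%, against 7.66% of all genes) and 1 lower (3.45%, against 4.16%). Agrn, agrin, had 44.4 and 52.8 CPM with LPS and 13.1 and 13.5 CPM untreated (1.87, SE 0.13), and Lamc1, a laminin chain, had 449.9 and 476 CPM with LPS and 161 and 205 CPM untreated (1.34, SE 0.13, adjusted p = 2.30e-06). Thbs1, thrombospondin 1, was the 1 that fell, with 0.303 and 0.809 CPM with LPS and 3.64 and 3.44 CPM untreated (-2.60, SE 0.39, adjusted p = 0.000287). Of the growth factors, Gdf15, a stress hormone, rose to 20.6 and 22.6 CPM with LPS against 6.77 and 7.96 CPM untreated (1.55, SE 0.14). Igf1, insulin-like growth factor 1, fell to 83.7 and 78.5 CPM with LPS against 187 and 151 CPM untreated (-1.06, SE 0.11, adjusted p = 9.05e-06), and its binding protein Igfbp4 fell to 12.9 and 13.3 CPM with LPS against 25.3 and 32.9 CPM untreated (-1.15, SE 0.17).

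Cell-shape genes changed as well, with 15 of 92 actin, myosin and membrane remodelling genes higher (16.3%, against 7.66% of all genes) and 4 lower, 9 and 2 of them in every fit that left out 1 library. Marcksl1, a protein kinase C substrate at the membrane, had 4.66 and 6.52 CPM with LPS and 0.565 and 0.326 CPM untreated (3.66, SE 0.31). Lsp1, a leukocyte actin-binding protein, had 4.06 and 4.38 CPM with LPS and 15.1 and 15.8 CPM untreated (-1.87, SE 0.16, adjusted p = 7.62e-07). Anxa1, annexin A1, fell to 23.3 and 24.0 CPM with LPS against 53.9 and 38.8 CPM untreated (-0.97, SE 0.15). Of 109 SNARE, synaptotagmin and sorting nexin genes 8 rose (7.34%, near the 7.66% of all genes) and 1 fell, with 5 and 0 called in every fit that left out 1 library. Those that rose included Syt7, a calcium sensor of lysosome exocytosis, with 24.9 and 22.9 CPM with LPS and 7.08 and 8.98 CPM untreated (1.57, SE 0.15). Genes picked by a name pattern of cytosolic ribosomal proteins, by contrast, had 0 of 80 higher and 1 lower. The pattern can also catch related genes and pseudogenes. The lower one was the ribosomal protein-like gene Rpl7l1 (-0.37). It lost its call without LPS replicate 1, without LPS replicate 2 and without untreated replicate 1.

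Outside all lists, 489 genes rose (5.31%, against 7.66% of all genes) and 348 fell (3.78%, against 4.16%) of 9202 measured. Cybb, the catalytic subunit of the phagocyte NADPH oxidase, had 1058 and 1060.1 CPM with LPS and 142 and 172 CPM untreated (2.75, SE 0.12, adjusted p = 3.22e-10). Another subunit, Ncf4, rose to 131 and 120.3 CPM with LPS against 84.0 and 79.6 CPM untreated (0.62, SE 0.10), while the partner Cyba had 345 and 410.4 CPM with LPS and 257 and 344 CPM untreated and did not pass the test (adjusted p = 0.222), although its adjusted p was 0.0327 without untreated replicate 2. Acp5, an acid phosphatase best known from osteoclasts, had 4.60 and 5.00 CPM with LPS and 0.257 and 0.372 CPM untreated (3.90, SE 0.32). Heatr9 had 1.94 and 2.48 CPM with LPS and no count in either untreated library, at least 14.3-fold higher with the same limit of 3 counts. Mir155hg, the host transcript of miR-155, had 4.84 and 7.81 CPM with LPS and 0.462 and 0.419 CPM untreated (3.84, SE 0.50, adjusted p = 0.000102). Of 257 long intergenic RNA genes tested, 15 rose (5.84%) and 2 fell (0.778%), both below the shares of all genes. In the lower direction, the secreted glycoprotein gene Olfm4 had 3.45 and 2.38 CPM with LPS and 13.3 and 11.4 CPM untreated (-2.10, SE 0.22, adjusted p = 8.90e-06). Mamdc2, a gene of the matrix, had 1.82 and 1.52 CPM with LPS and 5.75 and 4.42 CPM untreated (-1.61, SE 0.26).

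Counting tested genes in chromosome order, 29 runs of 3 or more neighbours rose together and 5 fell together, and 9 and 1 of these held 4 or more. The number that calls spread evenly over the genome would give was not computed, so the runs are a description. The longest held 6 oligoadenylate synthetase genes on chromosome 5 (120730333 to 120907521, GRCm38), from Oas2 to Oas1a, whose near-identical members make the division of reads uncertain. The second, on chromosome 5 as well (105077630 to 105832436), joined the GTPase gene Gbp9 and Gm43302 to Lrrc8b, Lrrc8c and Lrrc8d. In this run Lrrc8b had a change of 0.50 (SE 0.14), which was not called without LPS replicate 2 (adjusted p = 0.371) or without untreated replicate 1 (adjusted p = 0.111). Among antisense genes, 12 of 276 rose (4.35%, below the 7.66% of all genes) and 3 fell (1.09%, below 4.16%). Gm13571, which lies antisense to Ly75 so that their reads may mix, had 153 and 163 CPM with LPS and 18.7 and 15.0 CPM untreated, and Ly75 had 10.3 and 12.1 CPM with LPS and 3.13 and 3.81 CPM untreated. The run of 4 that fell was the apolipoprotein cluster of chromosome 7 (19671579 to 19699188). The bars of Saa1 and Saa2 in the plot of neighbouring genes are fitted values, since both had no count without LPS. In the apolipoprotein run, Apoc1 and Apoe changed by -2.55 (SE 0.29) and -1.21 (SE 0.10), and Apoe, a lipid carrier, had 184 and 184 CPM with LPS and 439 and 413 CPM untreated. Apoc2 changed by -0.96 (SE 0.21) and Apoc4 by -3.82 (SE 0.93), and without LPS replicate 1 their adjusted p-values were 0.0636 and 0.115, without LPS replicate 2 that of Apoc4 was 0.0506, and without untreated replicate 1 it was 0.0672.

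**Figure D5:**
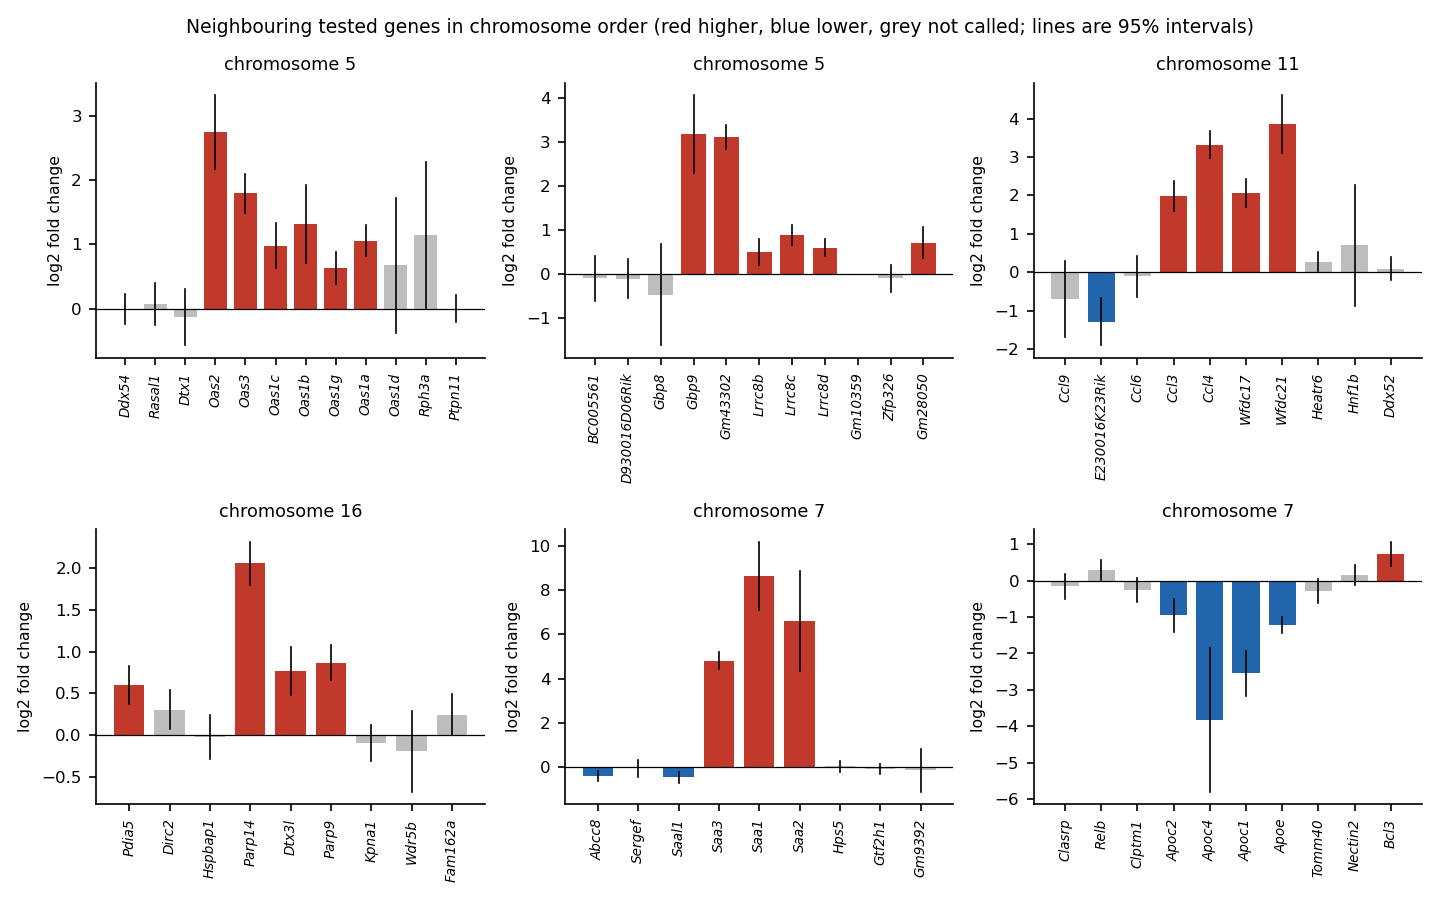
Log2 fold change of LPS over untreated (bars, 95% intervals as lines) for 6 runs of neighbouring tested genes with up to 3 tested neighbours on each side, in chromosome order. Red bars are called higher, blue bars lower and grey bars not called; the 6 Oas genes rise within 1 stretch and the 4 genes from Apoc2 to Apoe fall within 1 stretch.

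On the TPM scale, the share of all transcripts, which allows for gene length, the genes called higher made up 12.9% and 14.5% of the transcripts with LPS, against 5.55% and 6.49% untreated. Saa3, an acute-phase serum amyloid, held 4.30% and 4.63% of the TPM with LPS, against 0.175% and 0.169% untreated, and ranked 2 among all genes in both LPS libraries against 94 and 98 in the untreated libraries. The ferritin heavy chain gene Fth1 had 31943 and 43253 TPM with LPS and 25442 and 31778 TPM untreated, and its counts were called higher (0.50, SE 0.15). That call was lost without LPS replicate 2 (adjusted p = 0.416) and without untreated replicate 1 (adjusted p = 0.0780). Genes called lower made up 2.08% and 2.06% of the TPM with LPS, against 3.00% and 3.44% untreated.

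The mean transcript length that RSEM gives per gene, weighted by the abundance of its isoforms, was compared as a readout apart from the counts. Of 6782 genes with enough counts, 1 (0.0147%) passed a limma adjusted p under 0.05 with at least a 1.2-fold difference, and 400 (5.90%) had an unadjusted p under 0.05. It was Gmppb, a subunit of the enzyme that makes GDP-mannose, whose mean length was 1837 and 1739 bases with LPS and 809 and 726 bases untreated (log2 difference 1.22, SE 0.08, adjusted p = 0.0179). Its counts changed by -0.28 (SE 0.15) and did not pass the test (adjusted p = 0.256). The length call was lost when only the compared groups were fitted (adjusted p = 0.593), with a replicate block (adjusted p = 0.11) and without untreated replicate 2 (adjusted p = 0.0701), and Gmppb was not tested at a minimum of 500 counts.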

How the data were processed

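RNA of BV2 cells was sequenced as paired-end stranded mRNA libraries. The tools named in the submitters' processing notes include RSEM 1.3.3, STAR 2.7.11b and Trimmomatic 0.39, and the build named there is GRCm38 (mm10). The deposited RSEM tables hold expected counts, TPM and transcript lengths per gene, per the file headers. Deposited expected counts were rounded to whole numbers. GENCODE M21 named 97.965% of 43432 gene IDs. Genes on which too few counts fell were removed with filterByExpr, which left 12705.

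The main test was edgeR 4.0.16's quasi-likelihood F test under R 4.3.3, with TMM scaling, 6 group means over 12 libraries (6 residual degrees of freedom) and Benjamini-Hochberg adjustment. Transcript lengths were tested on the log2 scale with limma 3.58.1 in genes with at least 100 counts. CPM were computed from the counts. Deposited TPM served only for shares between genes. The median 95% interval of a log2 change reached 0.292 to either side. The biological coefficient of variation was 9.453%, and 3129 genes had an unadjusted p under 0.05. The 95% intervals come from the fit, so they include the spread between libraries.

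The genes, lists and tests were chosen with earlier results of these data known. Genes were named as the 4 of largest change per direction and list, 12 per direction outside the lists and 8 per direction and class, with at least 2 CPM in the higher group. The pattern of the cystatin list was corrected after the files were seen, because it also caught cleavage factor genes. Alternatives changed the size factors, the filter, the tool (DESeq2 1.42.0, limma-voom), the groups fitted, a replicate block, a fragment length covariate, and left out each library in turn. Promoters were read from RefSeq windows matched by symbol or synonym. A second deposited form of the data was not used. The code was tested on simulated data.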

Additional observations from a re-analysis of the deposited data

How the results depend on the processing

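The total of 1501 genes lay between 768 and 1602 when 1 library was left out, the number higher between 597 and 1053 against 973, and the number lower between 171 and 649 against 528. Where an LPS library was left out, the remaining one was assumed to vary like the other groups. With only the compared groups fitted, 253 genes were lower in place of 528, and the cause was not tested. Most genes called at least 2-fold higher kept their call in every fit that left out 1 library. Most of those called at least 2-fold lower did not, so a similar total need not hold the same genes. The number changed at least 2-fold stayed between 351 and 508 (449 in the main result) under every alternative run. Of 354 named genes, 215 kept their call in all 13 alternatives and 0 changed sign. Over all genes, 526 stayed called higher and 99 lower in all 13. Of 62 list counts, 19 stayed within 1.5 times in every alternative, so most list counts depend on the setting. The labels give no pairing beyond a shared replicate number (correlation of same-numbered deviations 0.115 across 9309 genes), and with the replicate block 1541 genes were called, 989 higher and 552 lower. The call on transcript length numbered 0 with a minimum of 500 counts, where Gmppb was not tested, 0 with only the compared groups, 0 with the replicate block and 0 to 4 when 1 library was left out. Precision was limited by 2 libraries per group.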
